A study of Mus musculus with 11 samples.

Results

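The RNA of 10 plasma membrane amino acid carriers rose when the long noncoding RNA Pint was lowered with antisense oligonucleotides (ASOs). All cells were p53 LSL/LSL mouse embryonic fibroblasts (MEFs) with p53 restored by adenoviral Cre and treated with doxorubicin. The rises ran from 1.15-fold for Slc3a2 and Slc38a2 to 1.91-fold for Slc7a1, an importer of arginine and lysine. Lowering p53 with siRNA raised 5 of the same 10 RNAs and lowered 1, Slc7a11, the subunit of the cystine importer. The carriers also differed between the control transfections themselves, 7 of the 10 being higher with the control ASO than with the control siRNA. In a fit to the control arrays alone, 2 of the 7 passed. Over all tested probe sets, 8.49% rose with Pint ASO, 7.97% rose and 8.96% fell with p53 siRNA, and 2.29% were higher with control ASO. The genes were Slc7a1, Slc7a3, Slc3a2, Slc7a5, Slc7a11, Slc1a4, Slc1a5, Slc38a2, Slc6a9 and Slc43a1, and they were taken by name: a probe set belonged to a member when the array's annotation gave that member as its only gene symbol. This gave 10 probe sets, 1 for each gene, of 34760 in the table (19938 genes had a probe set with 1 symbol), and all 10 passed the filter on low values described with the tests. In RefSeq (GRCm38.p6) the genes lie on 10 different chromosomes: 5 (Slc7a1), X (Slc7a3), 19 (Slc3a2), 8 (Slc7a5), 3 (Slc7a11), 11 (Slc1a4), 7 (Slc1a5), 15 (Slc38a2), 4 (Slc6a9) and 2 (Slc43a1).

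Amino acids cross the plasma membrane through carriers of the solute carrier (SLC) families, each of which takes a set of related amino acids. When amino acids run short or the endoplasmic reticulum is stressed, the kinases that phosphorylate eIF2 favour translation of the transcription factor ATF4, which is known to raise the transcription of many of these carriers together with enzymes of amino acid synthesis and tRNA charging. The cystine importer also answers to NRF2, the regulator of the antioxidant response, and in other settings p53 is known to repress its subunit Slc7a11.

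All 11 arrays came from p53 LSL/LSL MEFs on a C57BL/6 x 129/SvJ background, whose p53 gene is silenced by a removable stop cassette. In every group, controls included, adenoviral Cre (moi of 5, 24 h) had restored p53, the cells had then been transfected, and 24 h later doxorubicin, which damages DNA, had been added at 150 nM for 12 h. The 4 groups differed in what was transfected: control siRNA (n = 3), p53 siRNA (n = 3), control ASO (n = 2) and Pint ASO (n = 3). Per the study's methods the ASOs were gapmers that direct cleavage of their target. For the arrays the study names a pool of Pint ASOs and a non-targeting ASO as the control. The loss of Pint and the sequences transfected therefore cannot be told apart in that comparison. The labels do not say whether the arrays of a group came from separate cultures, so p-values measure the spread between these arrays, and no group holds untreated cells or cells without restored p53. RNA from whole cultures was measured, so fewer cells of a type and less RNA per cell cannot be told apart. In the check of the targets, the Pint transcript (Lncpint) was at log2 10.41 and 10.23 with the control ASO and at 8.60, 8.48 and 8.55 with the Pint ASO, so that 29.2% of the control level was left (log2 change -1.78 ± 0.12 SE, limma adjusted p = 2.94e-05). The p53 mRNA itself was not analysed here. Lncpint, a transcript that p53 is known to induce, fell by 0.54 ± 0.11 with p53 siRNA (adjusted p = 0.00673) and was higher by 0.71 ± 0.12 with the control ASO than with the control siRNA (adjusted p = 0.0137).

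Array medians lay between 7.31 and 7.38 on the log2 scale. Correlations over all probe sets ran from 0.993 to 0.995 within groups and from 0.983 to 0.993 between them. All 10 fibroblast markers examined (among them Col1a1, Pdgfra and Vim) were over log2 6 in every group, and so were some markers of other cell types, including 4 of 5 epithelial and 4 of 4 endothelial ones. The mean of the fibroblast markers moved with the groups: 12.42 to 12.45 per array with control siRNA, 12.71 to 12.74 with p53 siRNA, 12.33 to 12.34 with control ASO and 11.87 to 11.93 with Pint ASO. With Pint ASO the endothelial mean (7.12 to 7.16 against 6.82 to 6.93 with control ASO) and the neural mean (7.65 to 7.75 against 7.55 to 7.63) were higher and the epithelial mean (7.28 to 7.38 against 7.41 to 7.50) was lower, while those of macrophage and muscle markers overlapped. With p53 siRNA the macrophage (6.62 to 6.67 against 6.80 to 6.88 with control siRNA), muscle (6.79 to 6.91 against 7.05 to 7.12), neural (7.35 to 7.42 against 7.48 to 7.68) and epithelial means (7.54 to 7.60 against 7.63 to 7.69) were lower, and the endothelial mean was 6.87 to 6.96 against 6.78 to 6.87. Between the controls the epithelial mean was lower with the ASO, and the other means outside the fibroblasts overlapped. The part of these in the carriers' values was not tested.

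The promoter windows of Slc7a11, Slc1a4 and Slc7a1 are shown because the carriers moved together with Pint ASO and because ATF4 and NRF2 act through short DNA elements. RefSeq (GRCm38.p6) gave windows from 250 bases before to 50 bases after an annotated start, in the direction of the gene, for 7 of the 10 members and 10 starts; Slc7a3, Slc7a5 and Slc1a5 had none. The motifs searched on both strands were TGATGNAA (the core of the C/EBP-ATF element), TGACNNNGC (the core of the antioxidant response element) and CACGTG (the E-box), and no matches overlapped. Capitals mark the matches.
Slc7a11 (chr3:50443564-50443863, minus strand): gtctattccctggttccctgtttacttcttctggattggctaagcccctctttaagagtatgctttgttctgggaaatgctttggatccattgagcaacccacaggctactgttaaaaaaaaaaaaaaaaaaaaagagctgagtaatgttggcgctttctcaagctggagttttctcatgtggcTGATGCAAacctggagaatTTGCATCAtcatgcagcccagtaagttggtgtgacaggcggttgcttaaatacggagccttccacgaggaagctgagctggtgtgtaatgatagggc
Slc1a4 (chr11:20332664-20332963, minus strand): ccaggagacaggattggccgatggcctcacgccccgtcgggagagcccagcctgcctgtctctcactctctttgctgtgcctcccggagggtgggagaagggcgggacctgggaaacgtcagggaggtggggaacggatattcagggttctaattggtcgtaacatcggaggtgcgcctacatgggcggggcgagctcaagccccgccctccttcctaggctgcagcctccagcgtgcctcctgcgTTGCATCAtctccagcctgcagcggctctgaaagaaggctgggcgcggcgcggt
Slc7a1 (chr5:148399855-148400154, minus strand): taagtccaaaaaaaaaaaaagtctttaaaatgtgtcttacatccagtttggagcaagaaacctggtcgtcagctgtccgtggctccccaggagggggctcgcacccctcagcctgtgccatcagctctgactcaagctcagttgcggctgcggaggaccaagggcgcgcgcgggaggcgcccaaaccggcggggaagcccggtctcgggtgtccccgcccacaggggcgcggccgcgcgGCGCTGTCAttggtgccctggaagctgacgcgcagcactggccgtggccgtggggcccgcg

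TGATGNAA was found in 2 members and 2 of the 10 windows. Slc7a11 held it at -66 and, on the opposite strand, at -47 (first base, counted from the base before the annotated start as -1), and Slc1a4 held it at -4, while 3.97% of all 32851 windows in the table contained it. TGACNNNGC was found in 4 members and 5 of the 10 windows, against 12.4% of all windows. It lay at -11 in Slc7a1, -27 in Slc38a2, -46 and -45 in separate windows of Slc6a9 and -16 in Slc43a1. CACGTG was found in 1 of the 10 windows, that of Slc43a1 at -64, against 7.15% of all windows. The Slc3a2 window, the Slc7a1 window not shown and 1 of the Slc6a9 windows held none of these motifs. A match describes the sequence, and binding was not measured.

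In the following, values are log2 levels as deposited, in array order, and differences between groups are log2 changes ± moderated SE from a single limma fit over the 11 arrays. A change was called when its p, adjusted by the Benjamini-Hochberg method over all 26038 probe sets tested, was under 0.05. Tested were the probe sets with 2 or more arrays over log2 6 in any 1 of the groups.

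The cationic amino acid carriers Slc7a1 and Slc7a3, which import arginine, lysine and ornithine, gave the largest changes of the 10 with Pint ASO. Slc7a1 was at 10.17, 10.26 and 10.17 with control siRNA, 10.40, 10.37 and 10.31 with p53 siRNA, 10.68 and 10.62 with control ASO, and 11.52, 11.62 and 11.60 with Pint ASO. The 4 groups stood in that order with no overlap, and the widest gap lay between the ASO groups. The change was 0.93 ± 0.06 with Pint ASO (1.91-fold, adjusted p = 1.54e-05) and 0.45 ± 0.06 between the controls (1.37-fold, adjusted p = 0.00361). With p53 siRNA it was 0.16 ± 0.05 and did not pass the test (adjusted p = 0.0568), although it did under 3 of 20 alternative settings. Slc7a3 was at 7.98, 7.69 and 7.78 with control siRNA, 8.06, 8.18 and 8.15 with p53 siRNA, 8.82 and 8.68 with control ASO, and 9.47, 9.74 and 9.57 with Pint ASO. Again the groups stood in the same order and did not overlap, although the control siRNA arrays were widely spread. Slc7a3 rose by 0.84 ± 0.10 with Pint ASO (1.79-fold, adjusted p = 5.17e-04) and stood 0.93 ± 0.10 higher in the ASO control than in the siRNA control (1.91-fold, adjusted p = 0.00188). Its change of 0.31 ± 0.09 with p53 siRNA lay close to the threshold (adjusted p = 0.0451): the adjusted p was 0.0530 to 0.140 when control siRNA 2 or 3, p53 siRNA 1, 2 or 3, control ASO 1 or 2, or Pint ASO 3 was left out, and the call held under 8 of 20 settings.

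**Figure D1:**
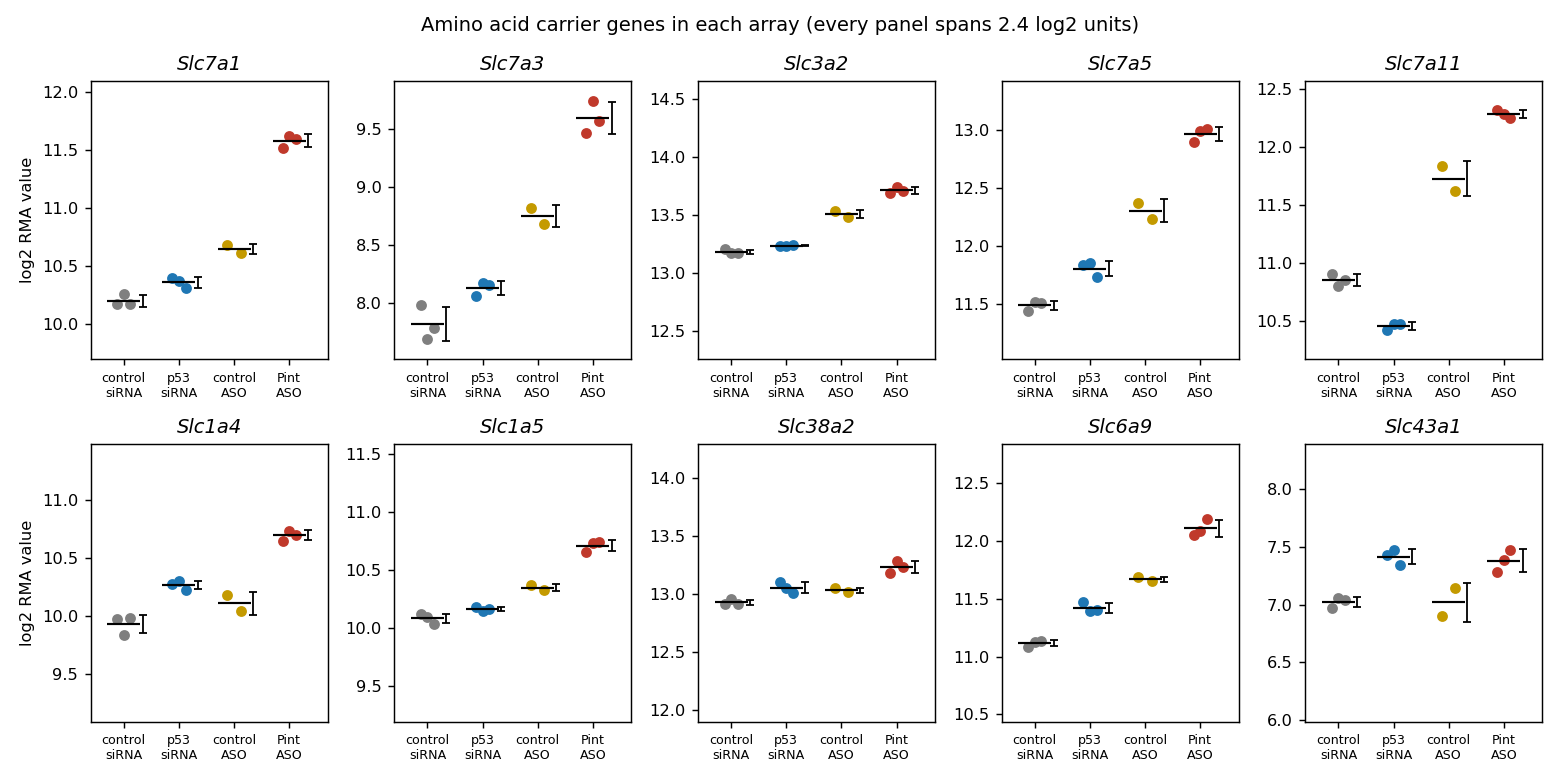
Log2 RMA value (y axis) of each of the 10 carriers in every array, by transfection (x axis); points are arrays, horizontal lines are group means and bars beside them are ± 1 SD, and all panels cover the same range of log2 units. The 3 Pint ASO arrays lie above both control ASO arrays in all 10 panels, and the p53 siRNA arrays lie below the control siRNA arrays only for Slc7a11.

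Slc3a2 (CD98) is the heavy chain that brings several SLC7 light chains to the cell surface, among them Slc7a5 (LAT1), which exchanges large neutral amino acids such as leucine, and Slc7a11 (xCT), which imports cystine in exchange for glutamate. The heavy chain changed least of the 3. Its levels were 13.20, 13.17 and 13.17 with control siRNA, 13.23, 13.23 and 13.24 with p53 siRNA, 13.53 and 13.48 with control ASO, and 13.68, 13.74 and 13.71 with Pint ASO. The steps were small but the arrays of a group lay close together and no groups overlapped. Slc3a2 rose by 0.20 ± 0.04 with Pint ASO (1.15-fold, adjusted p = 0.00937) and was 0.33 ± 0.04 higher in the ASO control (1.25-fold, adjusted p = 0.00468), while the p53 siRNA change of 0.05 (95% interval -0.03 to 0.14) did not pass the test (adjusted p = 0.421). Without control ASO 2 the Pint ASO change was 0.18 and no longer passed (adjusted p = 0.0616).

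Slc7a5 was at 11.44, 11.52 and 11.51 with control siRNA, 11.83, 11.85 and 11.73 with p53 siRNA, 12.37 and 12.24 with control ASO, and 12.90, 12.99 and 13.01 with Pint ASO. These groups too were separate and in the order of Slc7a1. The Slc7a5 RNA rose in both knockdowns, by 0.32 ± 0.06 with p53 siRNA (1.24-fold, adjusted p = 0.00433) and by 0.66 ± 0.06 with Pint ASO (1.58-fold, adjusted p = 1.66e-04). The difference between the controls, 0.82 ± 0.06 (1.76-fold, adjusted p = 2.93e-04), was numerically above either.

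The cystine carrier subunit Slc7a11 was the only one of the 10 that p53 siRNA lowered. Its levels were 10.91, 10.80 and 10.85 with control siRNA and 10.42, 10.48 and 10.47 with p53 siRNA, then 11.83 and 11.62 with control ASO and 12.32, 12.29 and 12.25 with Pint ASO. The p53 siRNA arrays were the lowest of the 11 and the Pint ASO arrays the highest, with no overlap between any of the groups. With p53 siRNA Slc7a11 fell by 0.40 ± 0.06, to 75.9% of the control (adjusted p = 0.00154). With Pint ASO it rose by 0.56 ± 0.07 (1.48-fold, adjusted p = 5.05e-04), and between the controls it was 0.87 ± 0.07 higher with the ASO (1.83-fold, adjusted p = 2.80e-04).

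Slc1a4 (ASCT1) and Slc1a5 (ASCT2) are sodium-dependent exchangers of neutral amino acids; the first carries serine, alanine and cysteine, the second also glutamine. Slc1a4 was at 9.98, 9.84 and 9.98 with control siRNA, 10.28, 10.30 and 10.23 with p53 siRNA, 10.18 and 10.04 with control ASO, and 10.65, 10.74 and 10.70 with Pint ASO. Here the p53 siRNA arrays lay above the control ASO arrays, and again no groups overlapped. Slc1a4 rose with p53 siRNA, by 0.34 ± 0.06 (1.26-fold, adjusted p = 0.00318), and with Pint ASO, by 0.59 ± 0.06 (to 150% of the control, adjusted p = 3.20e-04). The difference of 0.18 ± 0.06 between the controls did not pass the test (adjusted p = 0.176). Slc1a5 was at 10.12, 10.09 and 10.03 with control siRNA, 10.18, 10.15 and 10.17 with p53 siRNA, 10.37 and 10.32 with control ASO, and 10.65, 10.73 and 10.74 with Pint ASO. Its groups were separate and stood in the order of Slc7a1. The Pint ASO change was 0.36 ± 0.05 (1.29-fold, adjusted p = 9.42e-04), and that with p53 siRNA, 0.08 (95% interval -0.02 to 0.18), did not pass (adjusted p = 0.262). The Slc1a5 difference between the controls, 0.26 ± 0.05, passed with all arrays (adjusted p = 0.0207) but not without any single array of either control group (adjusted p = 0.0519 to 0.125).

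Slc38a2 (SNAT2), the system A carrier that takes up small neutral amino acids such as alanine and glutamine, showed the smallest change with Pint ASO. It was at 12.92, 12.96 and 12.92 with control siRNA, 13.10, 13.05 and 13.01 with p53 siRNA, 13.05 and 13.02 with control ASO, and 13.18, 13.28 and 13.23 with Pint ASO. The p53 siRNA and control ASO arrays overlapped, the control siRNA arrays lay below them and the Pint ASO arrays above. The change with Pint ASO was 0.20 ± 0.05 (1.15-fold, adjusted p = 0.0232); it passed under 13 of 20 settings and not without control ASO 1 or 2 or Pint ASO 2 or 3 (adjusted p = 0.0501 to 0.106). Neither the 0.13 ± 0.04 with p53 siRNA (adjusted p = 0.0890) nor the 0.11 ± 0.05 between the controls (adjusted p = 0.311) passed.

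Slc6a9 (GLYT1), a sodium- and chloride-dependent glycine carrier, rose in both knockdowns and was higher in the ASO control. Its levels were 11.08, 11.12 and 11.14 with control siRNA, 11.47, 11.40 and 11.40 with p53 siRNA, 11.68 and 11.65 with control ASO, and 12.05, 12.08 and 12.19 with Pint ASO. The groups were separate, in the order of Slc7a1. The changes were 0.31 ± 0.05 with p53 siRNA (1.24-fold, adjusted p = 0.00198), 0.44 ± 0.05 with Pint ASO (1.36-fold, adjusted p = 6.02e-04) and 0.55 ± 0.05 between the controls (1.47-fold, adjusted p = 0.00114). Slc43a1 (LAT3), which carries branched-chain amino acids and works without Slc3a2, had another order. It was at 6.97, 7.06 and 7.04 with control siRNA, 7.43, 7.47 and 7.34 with p53 siRNA, 6.90 and 7.14 with control ASO, and 7.28, 7.38 and 7.47 with Pint ASO. The control groups overlapped, the knockdown groups overlapped, and every knockdown array lay above every control array. Slc43a1 rose by 0.39 ± 0.07 with p53 siRNA (1.31-fold, adjusted p = 0.00551) and by 0.36 ± 0.08 with Pint ASO (1.28-fold, adjusted p = 0.0147), the latter being 0.24 without control ASO 1 (adjusted p = 0.119). Between the controls the value was 0.00 (95% interval -0.19 to 0.18, adjusted p = 0.997), and its sign turned with the normalization between arrays.

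**Figure D2:**
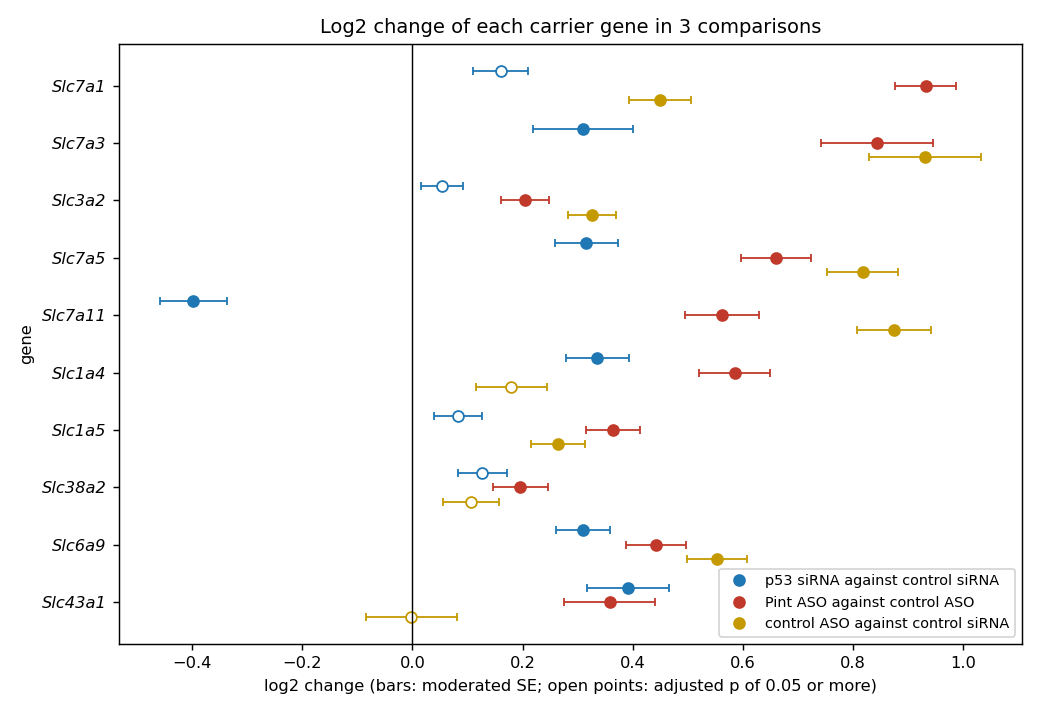
Log2 change (x axis) of each carrier (y axis) with p53 siRNA (blue), with Pint ASO (red) and between the control transfections (yellow); bars are the moderated SE and open points did not pass the adjusted threshold. All 10 red points lie above 0, from 0.20 to 0.93, and the blue point of Slc7a11 is the only filled one below 0.

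Counted together, all 10 carriers rose with Pint ASO and none fell, also at an unadjusted p under 0.05, while 8.49% of all tested probe sets rose and 10.7% fell in that comparison. Their median log2 change was 0.50, beside 0.00 for all tested probe sets. The members were chosen with earlier results of these data known, so the counts and shares here describe the list and do not test it. Every Pint ASO array was above every control ASO array for 10 of 10 members, which held for 18.2% of all tested probe sets. With p53 siRNA 5 members rose (Slc7a3, Slc7a5, Slc1a4, Slc6a9 and Slc43a1), Slc7a11 fell and 4 did not pass, against 7.97% of all tested probe sets that rose and 8.96% that fell; the median was 0.23, beside 0.01. For 9 members the p53 siRNA arrays were all above the control siRNA arrays, as they were for 17.1% of all probe sets tested.

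With a B statistic over 3 (the log odds of a change, without the fold-change limits that the study set per contrast) in place of an adjusted p, 6 members rose with Pint ASO (Slc7a1, Slc7a3, Slc7a5, Slc7a11, Slc1a4 and Slc6a9) against 1.25% of all tested probe sets. With p53 siRNA 0 members rose or fell by this measure, against 1.69% and 2.23% of all tested probe sets, where the limma adjusted p called 6 members and an unadjusted p under 0.05 was reached by 7 that were higher and 1 that was lower. In a fit to the ASO arrays alone 7 members rose with Pint ASO, against 3.18% of all tested probe sets.

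Whether the effects of the knockdowns differed in size was tested as the Pint ASO change minus the p53 siRNA change. It was higher for 5 members, against 9.15% of all tested probe sets, and lower for none, against 9.40%, with none lower at an unadjusted p under 0.05 either. The difference was 0.96 ± 0.09 for Slc7a11 (adjusted p = 1.07e-04), where the changes had opposite signs, and 0.77 ± 0.07 for Slc7a1 (adjusted p = 1.22e-04). It was 0.53 ± 0.14 for Slc7a3 (adjusted p = 0.0235), 0.34 ± 0.09 for Slc7a5 (adjusted p = 0.0210) and 0.28 ± 0.07 for Slc1a5 (adjusted p = 0.0155). These latter 3 calls were lost without control ASO 2 (adjusted p = 0.0969, 0.0895 and 0.0609), that of Slc7a3 also without p53 siRNA 1 (adjusted p = 0.0530) and that of Slc7a5 without control siRNA 3 (adjusted p = 0.0507). For Slc1a4 the difference of 0.25 ± 0.09 did not pass (adjusted p = 0.0795), but did without control siRNA 2 (0.30, adjusted p = 0.0425) or control ASO 1 (0.32, adjusted p = 0.0499). It did not pass for Slc3a2 (95% interval 0.02 to 0.28), Slc38a2 (-0.08 to 0.22), Slc6a9 (-0.03 to 0.30) or Slc43a1 (-0.28 to 0.22). The arms used different agents and different controls, so the agent and the target cannot be told apart in this difference.

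The control transfections were compared with each other because each knockdown was set against its own control. With the control ASO 7 members were higher (Slc7a1, Slc7a3, Slc3a2, Slc7a5, Slc7a11, Slc1a5 and Slc6a9) and none lower, with none lower at an unadjusted p under 0.05, while 2.29% of all tested probe sets were higher and 1.73% lower. The members' median difference was 0.39, beside -0.01 over all probe sets. For 9 members both control ASO arrays were above all control siRNA arrays, as for 16.0% of probe sets. In a fit to these 5 arrays alone, which called 0.146% of all tested probe sets higher, only the members Slc7a5 and Slc6a9 passed, the adjusted p of the other 5 of the 7 running from 0.0513 for Slc7a11 to 0.154 for Slc1a5. This comparison shares its arrays with the others, so the values are set side by side: between control siRNA and Pint ASO, Slc7a5 differed by 1.48, of which 0.82 lay between the controls, Slc7a11 by 1.44, of which 0.87 did, Slc7a3 by 1.77, of which 0.93 did, and Slc7a1 by 1.38, of which 0.45 did. For Slc1a4 the values were 0.76 and 0.18. The agent (siRNA or ASO) and the control sequence cannot be told apart here.

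Control siRNA was the lowest group for 8 members and Pint ASO the highest for 9. For 6 members (Slc7a1, Slc7a3, Slc3a2, Slc7a5, Slc1a5 and Slc6a9) the order was control siRNA, p53 siRNA, control ASO and Pint ASO, with neighbouring groups separate in all 6. How many of all tested probe sets had these orders was not counted, so these counts only describe the members. Over the 11 arrays, each probe set centred on its own mean, Slc3a2 and Slc1a5 had the most similar patterns among the members (root mean square difference 0.0591 on the log2 scale). Among genes outside the list, those most like Slc7a1 were Urb1 (0.0654), Akna (0.0731) and Lsmem1 (0.0790), and those most like Slc7a5 were Rab39b (0.0668), Adm2 (0.0784) and Snhg17 (0.0994). This is a description of likeness over 11 arrays in 4 groups.

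The other amino acid carriers of the plasma membrane were examined as a list of 34, of which 30 were tested. Most of the 30 had means over all arrays below the array medians (7.31 to 7.38), such as Slc7a9 (5.97). Of the 10 members only Slc43a1 (7.23) did. The listed carriers called with Pint ASO had higher means, from 8.43 (Slc43a2) to 12.37 (Slc6a6). The part of these levels in the difference between the lists was not tested. With Pint ASO 1 of the 30 rose and 5 fell (median 0.04), against 8.49% and 10.7% of all tested probe sets. The riser was Slc38a1 (0.37 ± 0.07, adjusted p = 0.00562), a glutamine carrier related to Slc38a2. Among those that fell was Slc7a2, another carrier of cationic amino acids in the Slc7 family, by 0.73 ± 0.05 (adjusted p = 4.00e-05), with Slc43a2, a system L carrier related to Slc43a1, by 0.63 ± 0.07 (adjusted p = 2.77e-04). The glutamate carrier Slc1a3 fell by 0.41 ± 0.06 (adjusted p = 0.00200) and the system A carrier Slc38a4 by 0.40 ± 0.07 (adjusted p = 0.00455). With p53 siRNA 5 of the 30 rose and 1 fell (median 0.10), against 7.97% and 8.96% of all tested probe sets. Slc6a17, a neutral amino acid carrier known from the synaptic vesicles of neurons and listed here with its family, rose by 0.95 ± 0.05 (adjusted p = 4.85e-06), Slc1a3 by 0.73 ± 0.06 (adjusted p = 2.74e-05) and Slc38a4 by 0.47 ± 0.07 (adjusted p = 9.86e-04). The glutamine carrier Slc38a3 fell by 0.46 ± 0.08 (adjusted p = 0.00439), at a low mean level of 6.96. The Pint ASO change minus the p53 siRNA change was lower for 7 of the 30 and higher for none (3 were higher at an unadjusted p under 0.05). Of all tested probe sets 9.40% were lower and 9.15% higher by this test. The difference was -1.14 ± 0.08 for Slc1a3, -1.06 ± 0.08 for Slc6a17, -0.89 ± 0.07 for Slc7a2 and -0.87 ± 0.10 for Slc38a4 (adjusted p = 3.10e-05 to 2.97e-04). Between the controls Slc6a17 and Slc38a1 were higher with the ASO (0.27 and 0.31, adjusted p = 0.0407 and 0.0459). Of all tested probe sets 2.29% were higher and 1.73% lower in that comparison.

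The genes of amino acid synthesis and tRNA charging that ATF4 is known to raise were examined next. With Pint ASO 23 of 24 tested rose (median 0.40), with p53 siRNA 13 did (median 0.20), and between the controls 11 were higher with the ASO (median 0.25). None fell in any of these comparisons, also at an unadjusted p under 0.05. Of all tested probe sets 8.49%, 7.97% and 2.29% were higher in the same comparisons. This list too was chosen with earlier results of these data known, so its counts are a description. With Pint ASO the largest changes were those of Aldh1l2, a mitochondrial folate enzyme (1.16 ± 0.06), Cth, which makes cysteine from cystathionine (1.04 ± 0.09), Chac1, which degrades glutathione (0.84 ± 0.05), and Mthfd2, of mitochondrial one-carbon metabolism (0.84 ± 0.06), with adjusted p from 1.03e-05 to 1.19e-04. With p53 siRNA Aldh1l2 rose by 0.56 ± 0.05 and Mthfd2 by 0.46 ± 0.06 (adjusted p = 9.63e-05 and 4.87e-04). Chac1 differed most between the controls, by 1.01 ± 0.05 (adjusted p = 3.01e-05).

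Of 18 tested regulators of the amino acid response, 13 rose and 1 fell with Pint ASO (median 0.36), against 8.49% and 10.7% of all tested probe sets. The 1 that fell was Eif2ak3, a kinase of eIF2, by 0.34 ± 0.07 (limma adjusted p = 0.00934). Ppp1r15a (GADD34), which returns phosphorylated eIF2 to its resting state, rose by 0.88 ± 0.06, Trib3, an inhibitor of ATF4, by 0.73 ± 0.07, Cebpg, a partner of ATF4, by 0.70 ± 0.06 and Sesn2, a leucine sensor and p53 target, by 0.57 ± 0.05 (adjusted p = 3.28e-05 to 1.85e-04). The RNA of Atf4 itself rose by 0.28 ± 0.06 (adjusted p = 0.00681); ATF4 protein was not measured. With p53 siRNA 3 of the 18 rose and 3 fell (median 0.10), against 7.97% and 8.96% of all tested probe sets. Sesn2 fell by 0.62 ± 0.05 and Ddit4, another p53 target, by 0.58 ± 0.06, and Nupr1 rose by 0.54 ± 0.06 (adjusted p = 2.35e-05, 1.73e-04 and 2.12e-04). Between the controls 9 were higher with the ASO and none lower (0 at an unadjusted p under 0.05). The shares of all tested probe sets were 2.29% and 1.73%. Trib3 was higher by 0.76 ± 0.07 (adjusted p = 9.27e-04).

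The NRF2 and glutathione genes were examined beside Slc7a11, since cystine taken up by its carrier feeds glutathione synthesis. With p53 siRNA, in which Slc7a11 fell, 5 of 13 fell and none rose (median -0.18, 1 higher at an unadjusted p under 0.05). Of all tested probe sets 8.96% fell and 7.97% rose. Gss and Gclc, enzymes of glutathione synthesis, fell by 0.69 ± 0.05 and 0.49 ± 0.04, and Hmox1, which degrades haem, by 0.44 ± 0.05 (adjusted p = 1.10e-05, 6.45e-05 and 2.86e-04). With Pint ASO, in which Slc7a11 rose, 3 rose and 3 fell (median -0.02), against 8.49% and 10.7% of all tested probe sets. Hmox1 rose by 0.67 ± 0.06 and Txnrd1 (thioredoxin reductase) by 0.47 ± 0.09, and Gpx4, a glutathione peroxidase, fell by 0.33 ± 0.08 (adjusted p = 7.71e-05, 0.00637 and 0.0197). Nqo1 fell in both knockdowns, by 0.26 ± 0.08 with Pint ASO and 0.28 ± 0.07 with p53 siRNA (limma adjusted p = 0.0489 and 0.0241). Between the controls 3 were higher with the ASO, led by Gclm (0.52 ± 0.08, adjusted p = 0.00977), and none lower (2 at an unadjusted p under 0.05). The shares of all tested probe sets were 2.29% and 1.73%.

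**Figure D3:**
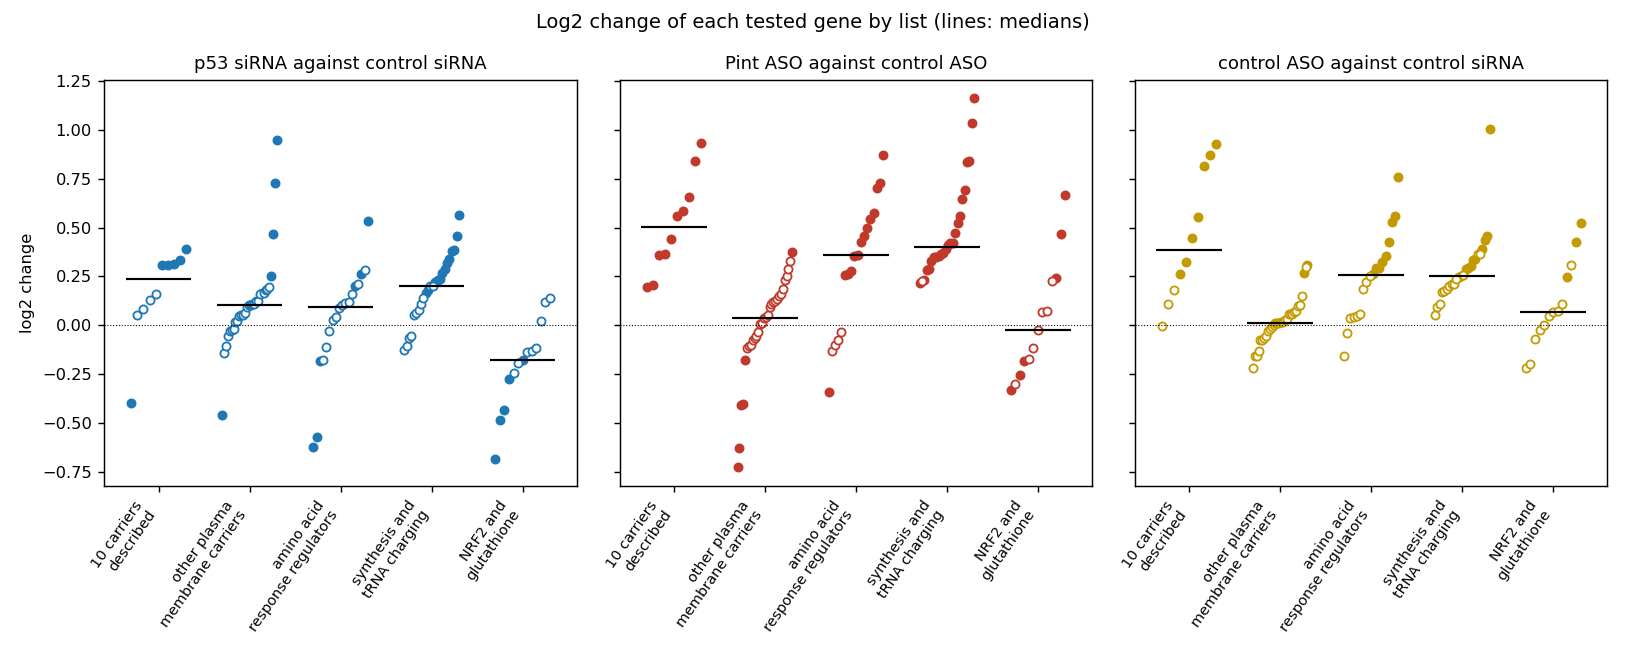
Log2 change (y axis) of every tested gene in 5 lists (x axis), 1 panel per comparison; filled points passed the adjusted threshold, open points did not, and lines are medians. With Pint ASO the medians were 0.50 for the 10 carriers, 0.04 for the other plasma membrane carriers, 0.36 for the regulators, 0.40 for synthesis and tRNA charging and -0.02 for the NRF2 and glutathione genes. Most of the other plasma membrane carriers had mean levels below the array medians.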

How the data were processed

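RNA from 11 MEF samples was measured on Affymetrix whole-transcript arrays; the main and supplementary methods name different models, and the deposited probe sets are those of the Gene ST design. Per the labels and the study's methods, 300 ng of total RNA was used per array, and the authors corrected the background and normalized with RMA (no version given in the sources used here), so the deposited values are log2 expression values. Arrays carry no read depth; their number limits the precision.

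Gene names came from the platform annotation: of 34760 probe sets, 21640 carried 1 symbol and 1321 several, which were not named. Older tRNA synthetase symbols were matched to current ones. Probe sets with 2 or more arrays over log2 6 (64 on the linear scale) in any 1 of the groups were tested, which left 26038. The study's filter asked for this in every condition and is an alternative here. limma (version 3.58.1, R 4.3.3) was fitted to all 4 groups with contrasts between group means. The script was tested on simulated data. For a gene with several probe sets outside the members, the one with the highest mean was used. Named were all members and, from each other list, at most 4 called genes per comparison, those with the largest change. Atf4, Eif2ak3, Slc38a1 and the p53 siRNA value of Slc16a1 were added after their values were seen. The members and lists were chosen with earlier results of these data known. Alternatives covered the filter, normalization between arrays, the prior, replicate blocks, the arrays fitted, unnamed probe sets, the call threshold and leaving out each array.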

Additional observations from a re-analysis of the deposited data

Results flagged for a closer look

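The effects of the knockdowns, each against its own control, differed for 5 carriers by the test of the difference in limma (Pint ASO change minus p53 siRNA change). On the log2 scale the difference was 0.77 for Slc7a1, 0.53 for Slc7a3, 0.34 for Slc7a5, 0.96 for Slc7a11 and 0.28 for Slc1a5. Slc7a11 was the carrier whose change was below 0 in one arm and above 0 in the other.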

How the results depend on the processing

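Of the values of single carriers under alternatives other than leaving out an array, 321 kept direction and side of the threshold, 20 fell below it, 6 passed it and 3 turned sign; when single arrays were left out the numbers were 409, 24, 2 and 5. With B over 3 the carriers called were 0 higher and 0 lower with p53 siRNA, against 1.69% and 2.23% of all tested probe sets. By this measure 6 were higher with Pint ASO, against 1.25%. For the difference between the effects 2 were higher, and that share was not counted. The fit to the arrays of the contrast alone called 2 higher between the controls, against 0.146% of all tested probe sets. The control ASO arrays carry other numbers in their titles than in their descriptions, and the methods name no pairs, so the numbers were not taken as pairs. Deviations of same-numbered arrays correlated at -0.284 to -0.0371 in the siRNA arm. In the ASO arm the values were -0.420 and -0.0463 by title, and 0.375 and 0.420 by description. With 2 control ASO arrays the deviations of 1 mirror those of the other, so renumbering can turn the sign. With the replicate block by title number 2 carriers were higher in the difference between the effects in place of 5, and the other counts stayed within 1.5 times. The block by description number lost the calls of Slc38a2 with Pint ASO (limma adjusted p = 0.0527) and Slc1a5 between the controls (0.0752). It also lost those of Slc7a3 with p53 siRNA (0.0838) and for the difference (0.0537). Leaving out each array gave 4 to 5 carriers higher and 1 to 1 lower with p53 siRNA, 8 to 10 higher with Pint ASO, 6 to 7 between the controls and 2 to 6 for the difference between the effects (2 without control ASO 2). Shares of all tested probe sets under the replicate blocks or without single arrays were not counted. Slc43a1 turned sign between the controls with quantile normalization again (0.0227), median centring (0.0149) and the title block (0.0046), and without single arrays it ran from -0.1211 to 0.1175 (positive, from 0.0049, in 3 cases); for it the difference between the effects ran from -0.1524 to 0.0862 (0.0154 without Pint ASO 1 and 0.0862 without control ASO 2). The cause was not tested. Averaging the probe sets of a gene was not run, as each carrier has 1.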

Other observations

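Of 11 tested lysosomal and vesicular carriers, 3 rose and 1 fell with Pint ASO, led by Slc38a7, which exports glutamine from the lysosome (0.46 ± 0.05, limma adjusted p = 4.96e-04), and with p53 siRNA the sialic acid and acidic amino acid carrier Slc17a5 fell by 0.35 ± 0.06 (adjusted p = 0.00411). Of 13 mitochondrial carriers 1 rose and 1 fell in each knockdown. Among all tested probe sets 8.49% rose and 10.7% fell with Pint ASO, and 7.97% rose and 8.96% fell with p53 siRNA. The mitochondrial counts lay near these shares. Slc25a44, which takes branched-chain amino acids, rose with Pint ASO by 0.45 ± 0.04 (adjusted p = 1.67e-04) and Slc25a12, an aspartate/glutamate carrier, fell by 0.35 ± 0.06 (adjusted p = 0.00230). With p53 siRNA Sfxn2 rose by 0.33 ± 0.09 and the glutamate carrier Slc25a22 fell by 0.28 ± 0.07 (adjusted p = 0.0253 and 0.0157).

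Among 17 tested plasma membrane carriers of other substrates, 4 rose and 8 fell with Pint ASO (median -0.14), and 7 rose and 2 fell with p53 siRNA (median 0.17). Of all tested probe sets 8.49% rose and 10.7% fell with Pint ASO, and 7.97% rose and 8.96% fell with p53 siRNA. The monocarboxylate carrier Slc16a1 fell by 0.78 ± 0.06 with Pint ASO (adjusted p = 6.64e-05) and rose by 0.34 ± 0.06 with p53 siRNA (adjusted p = 0.00287), a difference of -1.12 ± 0.09 (adjusted p = 3.51e-05). The zinc importer Slc39a10 and the choline carrier Slc44a1 fell by 0.74 ± 0.06 and 0.61 ± 0.05 with Pint ASO (adjusted p = 7.38e-05 and 6.64e-05), and Slc19a1, the reduced folate carrier, rose by 0.46 ± 0.05 (adjusted p = 3.67e-04). The lactate carrier Slc16a3 and the nucleoside carrier Slc29a1 rose by 0.73 ± 0.06 and 0.59 ± 0.05 with p53 siRNA (adjusted p = 5.08e-05 and 4.92e-05), and the potassium-chloride cotransporter Slc12a4 and the zinc importer Slc39a6 fell by 0.55 ± 0.05 and 0.45 ± 0.04 (adjusted p = 6.55e-05 and 6.88e-05).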
